A study of Mus musculus with 9 samples.

Results

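The 48 genes described here serve S phase, the part of the cell cycle in which DNA is copied, and were taken as a list of symbols that runs from origin licensing to histone supply. All 48 were found, by Ensembl identifier, among the 52661 gene rows of a count table of mouse embryonic fibroblasts, and all 48 passed the filter on low counts that left 18408 genes for testing. RNA was sequenced from 9 libraries in 3 groups of 3. The first group holds Ctr1-null fibroblasts (genotype Ctr1 -/-, called FloxedCtr1 in the sample titles) treated with bathocuproine disulfonic acid (BCS), a copper chelator, at 500 µM for 48 hours per the sample labels, where the series record says 500 mM. The second holds untreated Ctr1-null fibroblasts, and the third wild type fibroblasts. Ctr1, encoded by Slc31a1, is the importer of copper in the plasma membrane. All 3 groups are C57BL/6 cells immortalised with T/t antigen and grown in a medium with an N2 supplement, EGF and FGF-2, and no group of wild type cells treated with BCS was analysed here. The labels do not say whether the 3 libraries of a group came from separate cultures or clones, so the p-values measure only the spread between these libraries.

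Replication origins are licensed in G1 when the origin recognition complex, Cdc6 and Cdt1 load the MCM helicase, and the helicase is switched on in S phase by Cdc45, the GINS complex and Mcm10. The polymerases, their clamp PCNA, the single-strand binding protein RPA and the enzymes of nucleotide supply then copy the DNA, and the chaperone CAF-1 places histones on it. Many of these genes are E2F targets that are transcribed as cells leave G1, and large T antigen is known to bind the retinoblastoma proteins that hold E2F in check.

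In Ctr1-null cells with BCS, 28 of the 48 genes fell against wild type and none rose (quasi-likelihood test of edgeR, p adjusted by Benjamini-Hochberg over all 18408 genes and under 0.05). Over all genes tested, 7.28% were called lower and 8.56% higher in this comparison. The median log2 fold change of the 48 was -0.42, against 0.01 over all genes, and the median member stood at 74.9% of its wild type level. Neither of the other comparisons called a member. Untreated Ctr1-null cells against wild type had a median of -0.17, with 0.00543% of all genes called in each direction, and BCS against no BCS in Ctr1-null cells had a median of -0.25, with 0.0163% of all genes called lower and 0.0380% higher. These 3 comparisons share libraries, since each group enters 2 of them, so their values are given side by side and not as support for each other. In such bulk samples a smaller share of cells in S phase and less of these RNAs per cell cannot be told apart.

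**Figure D1:**
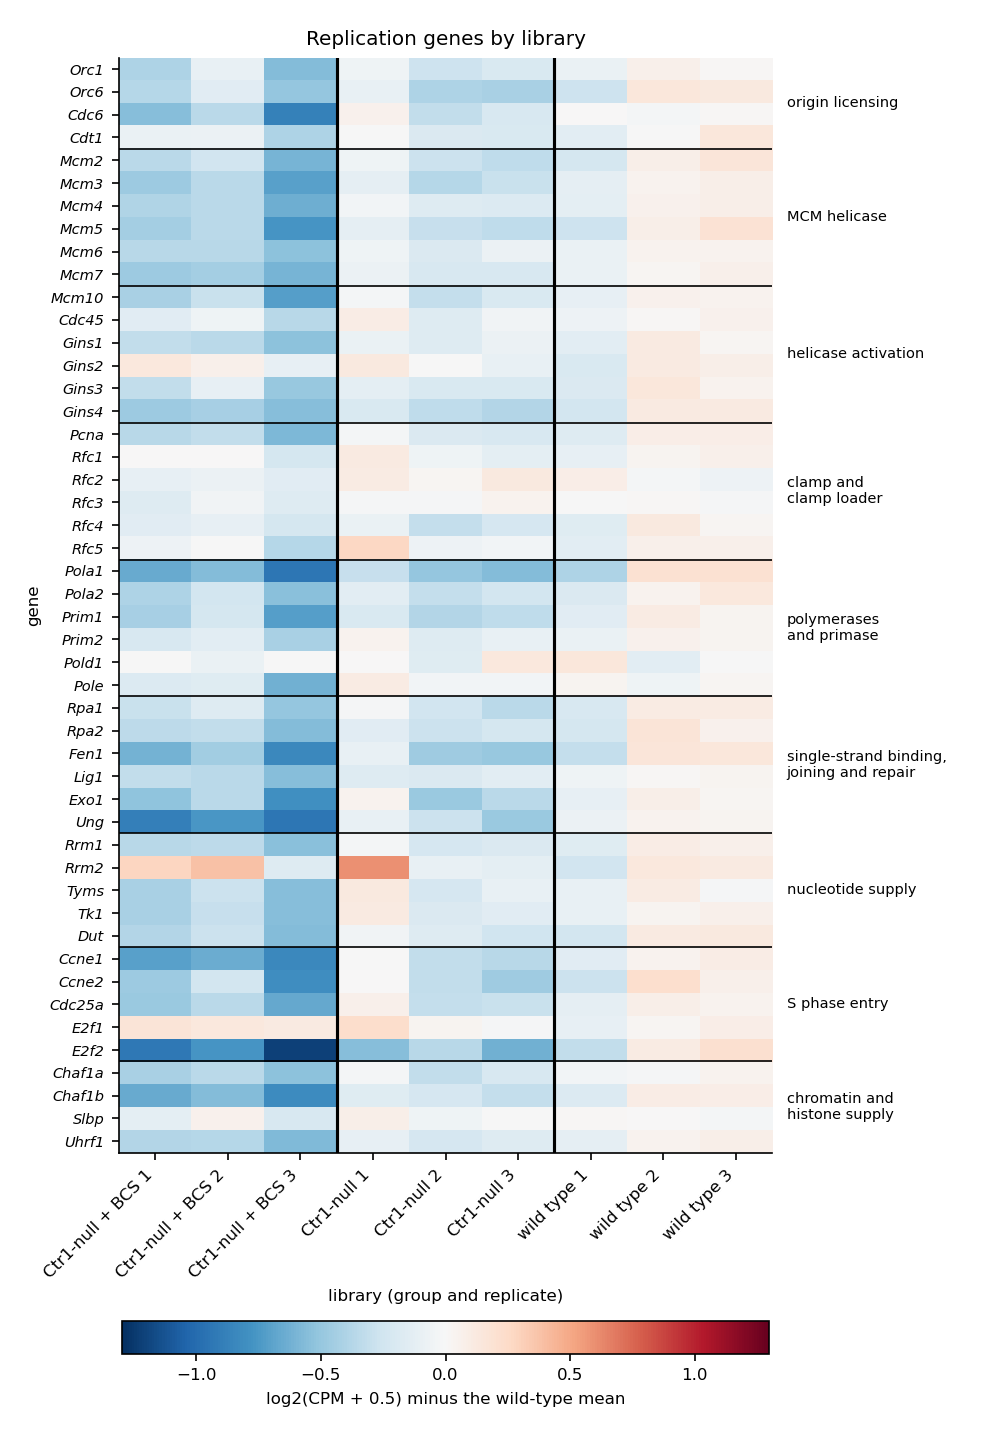
Each row is a replication gene, ordered by role, and each column a library; colour gives log2(CPM + 0.5) minus the mean of the 3 wild type libraries. The 3 columns with BCS are the bluest, Ctr1-null with BCS replicate 3 most of all (lowest of the 9 libraries in 42 of 48 genes), while Rrm2, E2f1, Gins2, Pold1 and the Rfc genes stay pale or turn red.

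Because many of these genes are E2F targets, their promoters were searched for 4 E2F-type octamers, TTTCCCGC, TTTCGCGC, TTTGCCGC and TTTGGCGC, on both strands of a window from 250 bases before to 50 after the gene start (RefSeq, GRCm38.p6). A promoter was matched for 39 of the 48 (not for Mcm4, Gins1, Gins2, Gins4, Rfc2, Prim2, Pole, Exo1 and Ccne2), and 15 of those (38.5%) held at least 1 octamer, against 523 of 11972 (4.4%) over all tested genes with a promoter. By outcome with BCS against wild type, 10 of 24 called members with a promoter (41.7%) and 5 of 15 members not called (33.3%) held a match. A gene with more than 1 RefSeq start was counted if any of its windows held a match. The members with several windows, E2f2, Mcm7, Lig1, Uhrf1 and Fen1, were all called, which gave called members more windows to match in. In E2f2, Mcm7, Lig1 and Uhrf1 the matches lay in only 1 of the windows. The 120 bases just before the RefSeq start are printed for genes on both sides of the call. Mcm6 (chr1:128359706-128359825 on the minus strand) and Cdc25a (chr9:109875459-109875578 on the plus strand) were called lower and hold matches there. Orc1 (chr4:108579334-108579453 on the plus strand) and Gins3 (chr8:95633439-95633558 on the plus strand) hold matches and were not called. Ung (chr5:114130315-114130434 on the plus strand) and Ccne1 (chr7:38107491-38107610 on the minus strand) were called lower, with changes among the largest of the members, and hold no match in their 300 bases. Capitals mark the octamers, read in the direction of the gene, and the first run of capitals in Mcm6 is a pair of matches that overlap on opposite strands.
Mcm6: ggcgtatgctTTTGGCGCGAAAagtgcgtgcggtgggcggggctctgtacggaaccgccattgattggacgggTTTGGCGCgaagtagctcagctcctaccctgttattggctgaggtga
Cdc25a: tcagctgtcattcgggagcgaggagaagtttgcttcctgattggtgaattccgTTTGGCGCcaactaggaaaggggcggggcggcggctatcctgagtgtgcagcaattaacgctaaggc
Orc1: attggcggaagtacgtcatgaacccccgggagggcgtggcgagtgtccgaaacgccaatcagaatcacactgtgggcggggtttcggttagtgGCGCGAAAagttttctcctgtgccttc
Gins3: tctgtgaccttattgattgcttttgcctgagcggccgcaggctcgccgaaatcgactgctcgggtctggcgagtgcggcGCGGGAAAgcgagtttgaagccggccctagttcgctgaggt
Ung: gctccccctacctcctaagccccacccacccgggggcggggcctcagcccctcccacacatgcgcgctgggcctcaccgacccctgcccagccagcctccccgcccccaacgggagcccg
Ccne1: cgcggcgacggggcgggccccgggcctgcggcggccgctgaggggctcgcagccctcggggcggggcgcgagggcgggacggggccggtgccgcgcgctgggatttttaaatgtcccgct
Matches were found among called and uncalled members, and so were promoters without one. The CCAAT box, searched in the same windows on both strands, was found in 61.5% of members with a promoter, 42.4% of tested genes and 85.0% of a list of G2/M genes. These letters describe the windows and say nothing of whether a factor bound there.

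Libraries held 38962036 to 57206337 counts. The targeted gene, Slc31a1, had 3.24, 2.54 and 1.69 CPM with BCS, 2.54, 3.88 and 1.40 CPM in Ctr1-null without BCS and 56.1, 54.8 and 54.9 CPM in wild type. It was low in every Ctr1-null library and high in every wild type library. Fibroblast markers were uneven. Of 11, 9 passed the filter and none was called, with log2 fold changes from -1.18 to 0.71 with BCS against wild type. The mean of log2(CPM + 0.5) over these 9, set against the wild type mean, differed between libraries of a group. It was 0.03, 0.08 and 0.31 with BCS, -0.48, 0.12 and 0.46 in untreated Ctr1-null and 0.48, -0.25 and -0.24 in wild type. Col1a1, Col1a2, Vim and S100a4 were high in all groups, whereas Thy1 averaged 0.400 CPM with BCS, 0.420 CPM in untreated Ctr1-null and 0.403 CPM in wild type cells. Fap and Lum were near 0 in all groups, with averages of up to 0.122 CPM for Fap and 0.0892 CPM for Lum. Among markers of other cells, the sums over the fat cell and muscle lists were higher in every Ctr1-null library, with or without BCS, than in any wild type library. The 5 fat cell markers summed to 67.2 to 81.6 CPM over the libraries with BCS, 58.6 to 85.2 CPM in untreated Ctr1-null and 24.3 to 30.1 CPM in wild type, with Pparg, Fabp4 and Cebpa called higher with BCS against wild type, Pparg also without BCS against wild type, and Adipoq, which marks mature fat cells, at or below 0.0516 CPM on average. The 5 muscle markers summed to 4.16 to 9.22 CPM with BCS, 2.62 to 5.51 CPM in untreated Ctr1-null and 1.14 to 1.98 CPM in wild type. Only 2 of these 5 passed the filter on low counts, and Myod1 had 0 counts in every library. Des, the muscle intermediate filament desmin, was called higher with BCS against wild type (log2 fold change 2.68, edgeR adjusted p = 0.00952). The other tested marker had a log2 fold change of 0.09 there and was not called. With BCS against no BCS the 2 went opposite ways, at -0.67 and 0.99, and neither was called. The 6 macrophage and blood markers summed to 18.7 to 26.2 CPM with BCS, 15.8 to 21.9 CPM in untreated Ctr1-null and 10.7 to 18.4 CPM in wild type, with none called and Adgre1 at 0. The 7 neural markers summed to 119.7 to 145 CPM with BCS, 172 to 201 CPM in untreated Ctr1-null and 156 to 244 CPM in wild type, most of it Nes, which was not called. Fabp7 was the 1 neural marker called, higher with BCS against wild type (log2 fold change 2.81, edgeR adjusted p = 0.0189), and Olig2 and Sox1 were at or next to 0. The sums of the epithelial and endothelial lists overlapped between the groups, and none of their markers was called. The part of such cells in the results was not tested. Wild type replicate 1 stood apart from its group: on the first principal component (54.4% of the variance) it lay at -0.45, while the other wild type libraries lay at 45.8 and 45.3. That value fell within the range of the untreated Ctr1-null libraries, which lay at 8.20, -6.53 and -23.05. Wild type replicate 1 was the lowest wild type library in 42 of the 48 replication genes, and results are therefore also given without it.

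Of the members called lower with BCS against wild type whichever library was left out, Ung changed most. It encodes the uracil glycosylase that removes misincorporated uracil from DNA (chr5:114130386-114139323, plus strand, GRCm38). Ung had 6.95, 7.65 and 6.69 CPM in BCS-treated Ctr1-null libraries, 12.4, 10.8 and 9.36 CPM in untreated Ctr1-null libraries and 12.5, 13.7 and 13.6 CPM in wild type libraries. Every treated library lay below every untreated one, and the untreated Ctr1-null libraries lay below wild type. The log2 fold change of Ung was -0.90 ± 0.12 with BCS against wild type (edgeR adjusted p = 0.0056), -0.61 ± 0.12 with BCS against untreated Ctr1-null (edgeR adjusted p = 0.0938) and -0.29 ± 0.12 in untreated Ctr1-null against wild type (edgeR adjusted p = 0.263).

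Of the other genes for single-strand binding, strand joining and repair, Rpa2, Fen1, Lig1 and Exo1 also fell with BCS against wild type, so that 5 of 6 did. Fen1, the nuclease that trims Okazaki fragments, had 79.6, 89.6 and 68.3 CPM with BCS, 115, 88.5 and 87.0 CPM in Ctr1-null without BCS and 98.6, 137 and 136 CPM in wild type. Lig1, the ligase that seals them, had 111, 109 and 94.1 CPM in treated Ctr1-null cells, 123, 121 and 126 CPM in untreated Ctr1-null cells and 134, 140.0 and 142 CPM in wild type cells. Exo1, an exonuclease of mismatch and end repair, had 26.8, 30.3 and 22.0 CPM with BCS, 40.0, 27.7 and 30.4 CPM in Ctr1-null without BCS and 36.1, 41.0 and 39.4 CPM in wild type. For these 3 the treated libraries were below all wild type libraries, and for Fen1 and Exo1 they overlapped the untreated Ctr1-null libraries. Rpa2, a subunit of the single-strand binding complex, had 33.4, 33.8 and 28.4 CPM in BCS-treated Ctr1-null libraries, 38.1, 34.9 and 36.0 CPM in untreated Ctr1-null libraries and 36.0, 47.8 and 44.2 CPM in wild type libraries, with every treated library lowest. Against wild type, the log2 fold changes with BCS were -0.65 ± 0.16 for Fen1 (edgeR adjusted p = 0.027), -0.41 ± 0.08 for Lig1 (adjusted p = 0.0116), -0.56 ± 0.15 for Exo1 (adjusted p = 0.0376) and -0.42 ± 0.11 for Rpa2 (adjusted p = 0.0347). Rpa1, the large subunit, had -0.32 ± 0.13 and was not called (edgeR adjusted p = 0.113).

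Genes of S phase entry held the largest fold change and a gene that went the other way. E2f2, a transcription factor of the E2F family with the lowest level of all members, had 2.88, 3.26 and 2.27 CPM in BCS-treated Ctr1-null libraries, 3.87, 4.50 and 3.66 CPM in untreated Ctr1-null libraries and 4.64, 6.41 and 6.93 CPM in wild type libraries. The 3 groups did not overlap, with treated cells lowest and wild type highest, and the log2 fold change of treated cells against wild type was -1.10 ± 0.20 (edgeR adjusted p = 0.0106). Ccne1, cyclin E1, which drives entry into S phase with Cdk2 (chr7:38097984-38107534, minus strand), had 24.99, 26.1 and 22.8 CPM with BCS, 41.1, 32.9 and 31.9 CPM in Ctr1-null without BCS and 37.1, 42.6 and 44.2 CPM in wild type. Cdc25a, a phosphatase that activates cyclin-dependent kinases, had 38.6, 42.4 and 34.0 CPM in treated Ctr1-null cells, 56.8, 43.7 and 44.2 CPM in untreated Ctr1-null cells and 49.8, 57.3 and 55.9 CPM in wild type cells. For both genes each treated library was below each untreated one, while untreated Ctr1-null cells overlapped wild type. Against wild type, the log2 fold change with BCS was -0.74 ± 0.12 for Ccne1 (edgeR adjusted p = 0.00663) and -0.50 ± 0.12 for Cdc25a (adjusted p = 0.0258). Ccne2, cyclin E2, had a log2 fold change of -0.51 ± 0.18 and missed the threshold (edgeR adjusted p = 0.0834). E2f1, an activating E2F, had 67.4, 65.9 and 64.7 CPM in BCS-treated Ctr1-null libraries, 69.9, 61.1 and 59.0 CPM in untreated Ctr1-null libraries and 55.3, 61.0 and 63.3 CPM in wild type libraries. Its treated libraries all lay above wild type, but the log2 fold change of 0.14 ± 0.08 was not called (95% interval -0.05 to 0.33, edgeR adjusted p = 0.274). With counts scaled by library size only, E2f1 was called higher (log2 fold change 0.24, edgeR adjusted p = 0.0364), a scaling that adds about 0.1 to the log2 fold changes of this comparison and under which 72.5% of all called genes were higher, against 54.0% with TMM.

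**Figure D2:**
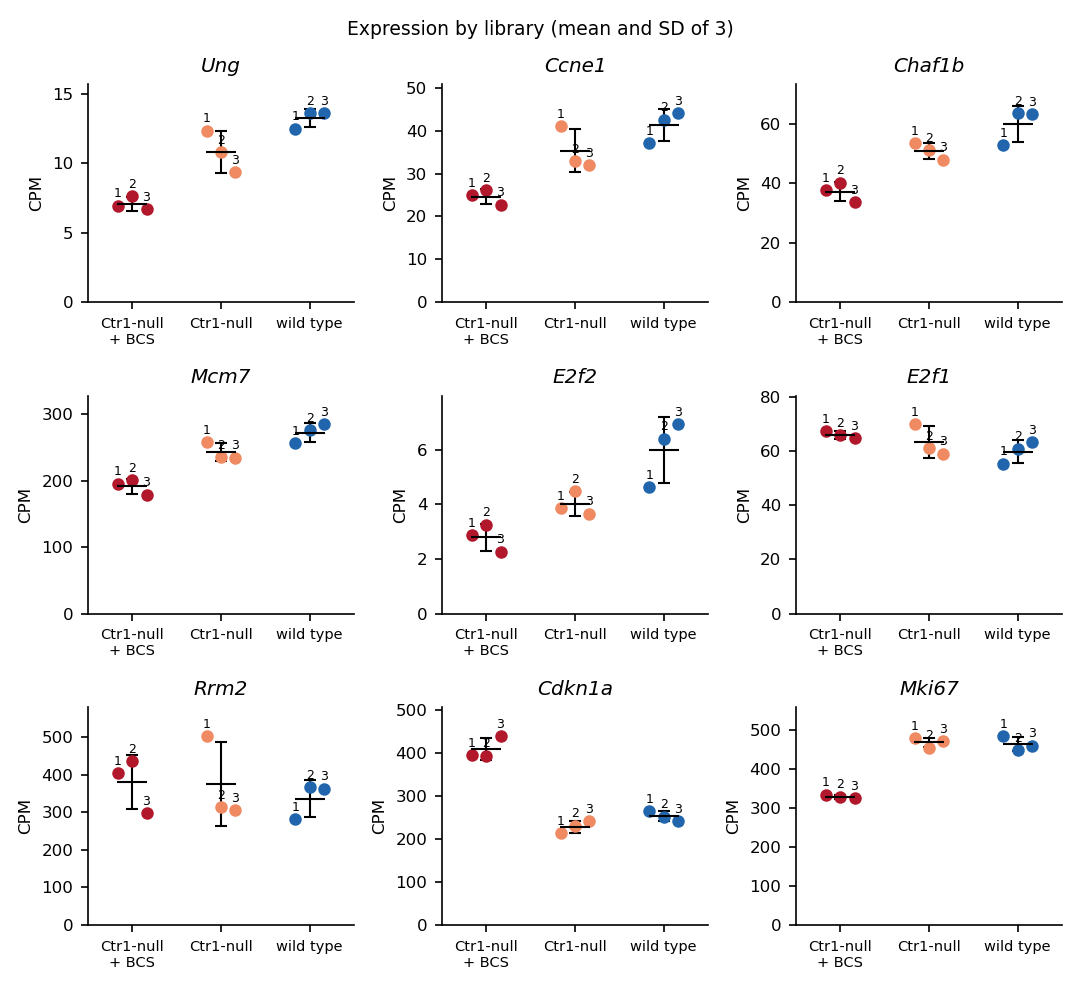
Points are CPM of single libraries, numbered by replicate, and bars the mean and SD of 3, for 7 replication genes, the inhibitor Cdkn1a and the proliferation marker Mki67; each vertical axis starts at 0. Ung, Ccne1, Chaf1b, Mcm7 and E2f2 are lowest in all 3 libraries with BCS, E2f1 and Rrm2 are not, Cdkn1a is highest there, and Mki67 falls to 325 to 334 CPM with BCS, against 449 CPM or more without.

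Chromatin genes fell as well, 3 of 4 with BCS against wild type. Chaf1b, the middle subunit of the histone chaperone CAF-1 (chr16:93883901-93906115, plus strand), had 37.7, 40.3 and 33.7 CPM in treated Ctr1-null cells, 53.5, 51.1 and 48.0 CPM in untreated Ctr1-null cells and 52.8, 63.7 and 63.4 CPM in wild type cells. Chaf1a, its large subunit, had 92.5, 97.2 and 85.6 CPM with BCS, 122, 99.1 and 107 CPM in Ctr1-null without BCS and 121, 123 and 128 CPM in wild type. Uhrf1, which recruits the maintenance DNA methyltransferase to new DNA, had 199, 199.7 and 174 CPM in BCS-treated Ctr1-null libraries, 240.1, 222 and 229.9 CPM in untreated Ctr1-null libraries and 238, 266 and 273 CPM in wild type libraries. In these 3 genes the treated libraries lay below all others. The log2 fold changes against wild type were -0.69 ± 0.10 for Chaf1b (edgeR adjusted p = 0.00592), -0.43 ± 0.09 for Chaf1a (adjusted p = 0.0145) and -0.44 ± 0.08 for Uhrf1 (adjusted p = 0.0124). Slbp, which binds the stem-loop of histone mRNAs, averaged 97.7 ± 9.29 CPM with BCS and 104 ± 1.28 CPM in wild type (SD, n = 3 each), a log2 fold change of -0.09 ± 0.08 that was not called (95% interval -0.27 to 0.09).

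The MCM helicase, which unwinds DNA at the fork, changed evenly: 5 of its 6 subunits fell with BCS against wild type, and the 6 log2 fold changes lay between -0.52 and -0.41. Mcm7 (chr5:138164583-138172422, minus strand) had 196, 201 and 179 CPM in BCS-treated Ctr1-null libraries, 258, 236 and 235 CPM in untreated Ctr1-null libraries and 257, 276 and 285 CPM in wild type libraries. Mcm6 had 214, 215 and 189.8 CPM with BCS, 265, 242 and 262 CPM in Ctr1-null without BCS and 258, 284 and 284 CPM in wild type. Mcm4 had 240.4, 249 and 204 CPM in treated Ctr1-null cells, 308, 282 and 279.9 CPM in untreated Ctr1-null cells and 290.2, 328 and 332 CPM in wild type cells. For these 3 subunits every treated library was below every untreated one. Mcm3 had 169, 185 and 144 CPM with BCS, 217, 182 and 192 CPM in Ctr1-null without BCS and 217, 242 and 248 CPM in wild type. Mcm5 had 187, 199.7 and 149 CPM in BCS-treated Ctr1-null libraries, 233, 207 and 203 CPM in untreated Ctr1-null libraries and 211, 267 and 290.0 CPM in wild type libraries. Mcm3 in treated cells overlapped untreated Ctr1-null cells and not wild type, and Mcm5 in treated cells was below both. Against wild type the log2 fold change was -0.51 ± 0.08 for Mcm7 (edgeR adjusted p = 0.00666), -0.42 ± 0.08 for Mcm6 (adjusted p = 0.0123), -0.46 ± 0.10 for Mcm4 (adjusted p = 0.0169), -0.51 ± 0.11 for Mcm3 (adjusted p = 0.0178) and -0.52 ± 0.14 for Mcm5 (adjusted p = 0.0352). Mcm2 had the like value of -0.41 ± 0.13 and missed the threshold (edgeR adjusted p = 0.06), with an SD of 40.3 CPM around its wild type mean of 298 CPM.

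Of the genes that license origins and load the helicase, only Cdc6 was called among 4. Cdc6, an ATPase that loads MCM with the origin recognition complex, had 29.1, 33.7 and 23.1 CPM in treated Ctr1-null cells, 44.6, 34.4 and 37.1 CPM in untreated Ctr1-null cells and 43.2, 42.3 and 43.5 CPM in wild type cells. Its treated libraries lay below all others, and its log2 fold change against wild type was -0.59 ± 0.14 (edgeR adjusted p = 0.0227). Orc6, a subunit of the origin recognition complex, had 65.5, 76.5 and 60.0 CPM with BCS, 79.6, 64.2 and 63.5 CPM in Ctr1-null without BCS and 70.3, 94.2 and 92.8 CPM in wild type. Here wild type replicate 1 lay with the Ctr1-null libraries, and the log2 fold change with BCS was -0.35 ± 0.14 (edgeR adjusted p = 0.118). Orc1 had -0.35 ± 0.12 and Cdt1, the partner of Cdc6 in loading, -0.19 ± 0.11, with edgeR adjusted p of 0.0819 and 0.272.

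Among the 6 genes of helicase activation, Mcm10, Gins1 and Gins4 fell with BCS against wild type. Mcm10, which is needed to start unwinding, had 42.4, 46.4 and 34.3 CPM in BCS-treated Ctr1-null libraries, 55.8, 45.5 and 49.4 CPM in untreated Ctr1-null libraries and 52.8, 59.1 and 58.6 CPM in wild type libraries. Gins1, a subunit of the GINS complex, had 10.3, 10.1 and 8.84 CPM with BCS, 12.2, 11.5 and 12.3 CPM in Ctr1-null without BCS and 11.8, 14.1 and 13.2 CPM in wild type. Gins4, another subunit, had 33.4, 34.4 and 31.6 CPM in treated Ctr1-null cells, 40.5, 37.0 and 35.5 CPM in untreated Ctr1-null cells and 39.4, 50.5 and 50.5 CPM in wild type cells. Treated libraries were below all wild type libraries in each, and for Mcm10 alone they overlapped untreated Ctr1-null. The log2 fold changes were -0.47 ± 0.12 for Mcm10 (edgeR adjusted p = 0.0298), -0.42 ± 0.11 for Gins1 (adjusted p = 0.0312) and -0.50 ± 0.11 for Gins4 (adjusted p = 0.017). Of the other GINS subunits, Gins3 had -0.31 ± 0.12 (edgeR adjusted p = 0.113) and Gins2 0.03 ± 0.10 (adjusted p = 0.867). Differences between the 4 GINS subunits, which form a complex of 1 copy each, were not tested. Gins2 had 75.8, 71.9 and 64.1 CPM in BCS-treated Ctr1-null libraries, 75.2, 68.5 and 64.2 CPM in untreated Ctr1-null libraries and 60.1, 74.4 and 72.8 CPM in wild type libraries. All 3 groups overlap in Gins2, but 67.3% of its annotated exon bases lie opposite exons of Gse1, and how strand was used in counting is not given in the sources used here. With the authors' scaling factors, an alternative chosen after seeing the data, the log2 fold change of Gins2 was -0.31, so its direction is not settled. Cdc45, which travels with MCM and GINS, had -0.19 ± 0.10 (edgeR adjusted p = 0.218).

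Of 6 polymerase and primase genes, Pola1, Pola2 and Prim1 fell with BCS against wild type. Pola1, the catalytic subunit of polymerase alpha, had 39.9, 42.6 and 32.8 CPM with BCS, 51.4, 44.5 and 42.6 CPM in Ctr1-null without BCS and 47.9, 72.9 and 72.4 CPM in wild type. Pola2, its accessory subunit, had 68.8, 76.8 and 62.0 CPM in BCS-treated Ctr1-null libraries, 82.7, 73.1 and 77.0 CPM in untreated Ctr1-null libraries and 79.6, 94.1 and 100.1 CPM in wild type libraries. Prim1, the primase that lays down RNA primers, had 70.3, 81.1 and 57.6 CPM in treated Ctr1-null cells, 82.7, 72.5 and 75.5 CPM in untreated Ctr1-null cells and 85.4, 103 and 97.4 CPM in wild type cells. In all 3, treated libraries were below wild type and overlapped untreated Ctr1-null libraries, and wild type replicate 1 was the lowest wild type library. Their log2 fold changes against wild type were -0.74 ± 0.17 for Pola1 (edgeR adjusted p = 0.0193), -0.40 ± 0.11 for Pola2 (adjusted p = 0.0351) and -0.45 ± 0.12 for Prim1 (adjusted p = 0.0389). Pole, the catalytic subunit of polymerase epsilon of the leading strand, had 101, 103 and 74.4 CPM in BCS-treated Ctr1-null libraries, 123, 112 and 112 CPM in untreated Ctr1-null libraries and 118, 110.3 and 117 CPM in wild type libraries. The treated libraries of Pole lay below all others, replicate 3 furthest, but the log2 fold change of -0.30 ± 0.12 was not called (edgeR adjusted p = 0.106). Pold1, the catalytic subunit of polymerase delta, had -0.04 ± 0.10 with a 95% interval of -0.25 to 0.18, and Prim2, the large primase subunit, -0.26 ± 0.09 with -0.47 to -0.05. Differences between the polymerases were not tested.

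Of the sliding clamp and its loader, the clamp was called and no loader subunit was. Pcna had 248, 255 and 213 CPM with BCS, 312, 279 and 276 CPM in Ctr1-null without BCS and 284, 338 and 337 CPM in wild type. Treated libraries were lowest throughout, with a log2 fold change against wild type of -0.42 ± 0.10 (edgeR adjusted p = 0.0255). The 5 Rfc subunits, which open and place the clamp, had log2 fold changes between -0.17 ± 0.09 for Rfc4 and -0.07 ± 0.10 for Rfc1, and none was called. Rfc4 had 34.7, 35.7 and 33.0 CPM in treated Ctr1-null cells, 36.3, 31.0 and 33.2 CPM in untreated Ctr1-null cells and 34.6, 42.3 and 39.3 CPM in wild type cells, and its groups overlapped. Rfc2 had 69.5, 70.7 and 67.4 CPM in BCS-treated Ctr1-null libraries, 80.3, 76.0 and 81.8 CPM in untreated Ctr1-null libraries and 79.6, 73.6 and 71.1 CPM in wild type libraries. Rfc2 was lower with BCS than in either other group, without overlap, though only by -0.11 ± 0.07 against wild type (edgeR adjusted p = 0.283) and -0.20 ± 0.07 against untreated Ctr1-null (adjusted p = 0.237). Rfc2 shares 15.1% of its exon bases with Lat2 on the opposite strand, Rfc4 12.7% with Eif4a2 and Rfc5 10.7% with Wsb2.

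Nucleotide supply changed in 4 of 5 genes, all by nearly the same amount. Rrm1, the large subunit of ribonucleotide reductase, had 246, 250.0 and 217 CPM in BCS-treated Ctr1-null libraries, 312, 272 and 277 CPM in untreated Ctr1-null libraries and 282, 337 and 331 CPM in wild type libraries. Tyms, thymidylate synthase, had 61.7, 68.2 and 56.1 CPM with BCS, 90.4, 71.2 and 77.6 CPM in Ctr1-null without BCS and 77.5, 89.2 and 81.8 CPM in wild type. Tk1, the S phase thymidine kinase, had 88.9, 96.4 and 80.9 CPM in treated Ctr1-null cells, 129, 105 and 108 CPM in untreated Ctr1-null cells and 111, 122 and 125 CPM in wild type cells. Every treated library was below every untreated one for these 3. Dut, the dUTPase that keeps uracil out of DNA, had 74.3, 79.5 and 65.3 CPM with BCS, 93.7, 85.8 and 80.5 CPM in Ctr1-null without BCS and 81.9, 105 and 105 CPM in wild type, again lowest in every treated library. The log2 fold changes against wild type were -0.42 ± 0.10 for Rrm1 (edgeR adjusted p = 0.0234), -0.42 ± 0.11 for Tyms (adjusted p = 0.0306), -0.43 ± 0.10 for Tk1 (adjusted p = 0.0235) and -0.41 ± 0.12 for Dut (adjusted p = 0.0401). Rrm2, the small subunit that pairs with Rrm1, had 404, 435 and 298 CPM in BCS-treated Ctr1-null libraries, 503, 313 and 306 CPM in untreated Ctr1-null libraries and 281, 366 and 362 CPM in wild type libraries. The groups overlap widely in Rrm2, with Ctr1-null replicate 1 highest and wild type replicate 1 lowest, and the log2 fold change of 0.17 ± 0.21 had a 95% interval of -0.30 to 0.65, the widest of the members. No alternative called Rrm2 in this comparison.

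**Figure D3:**
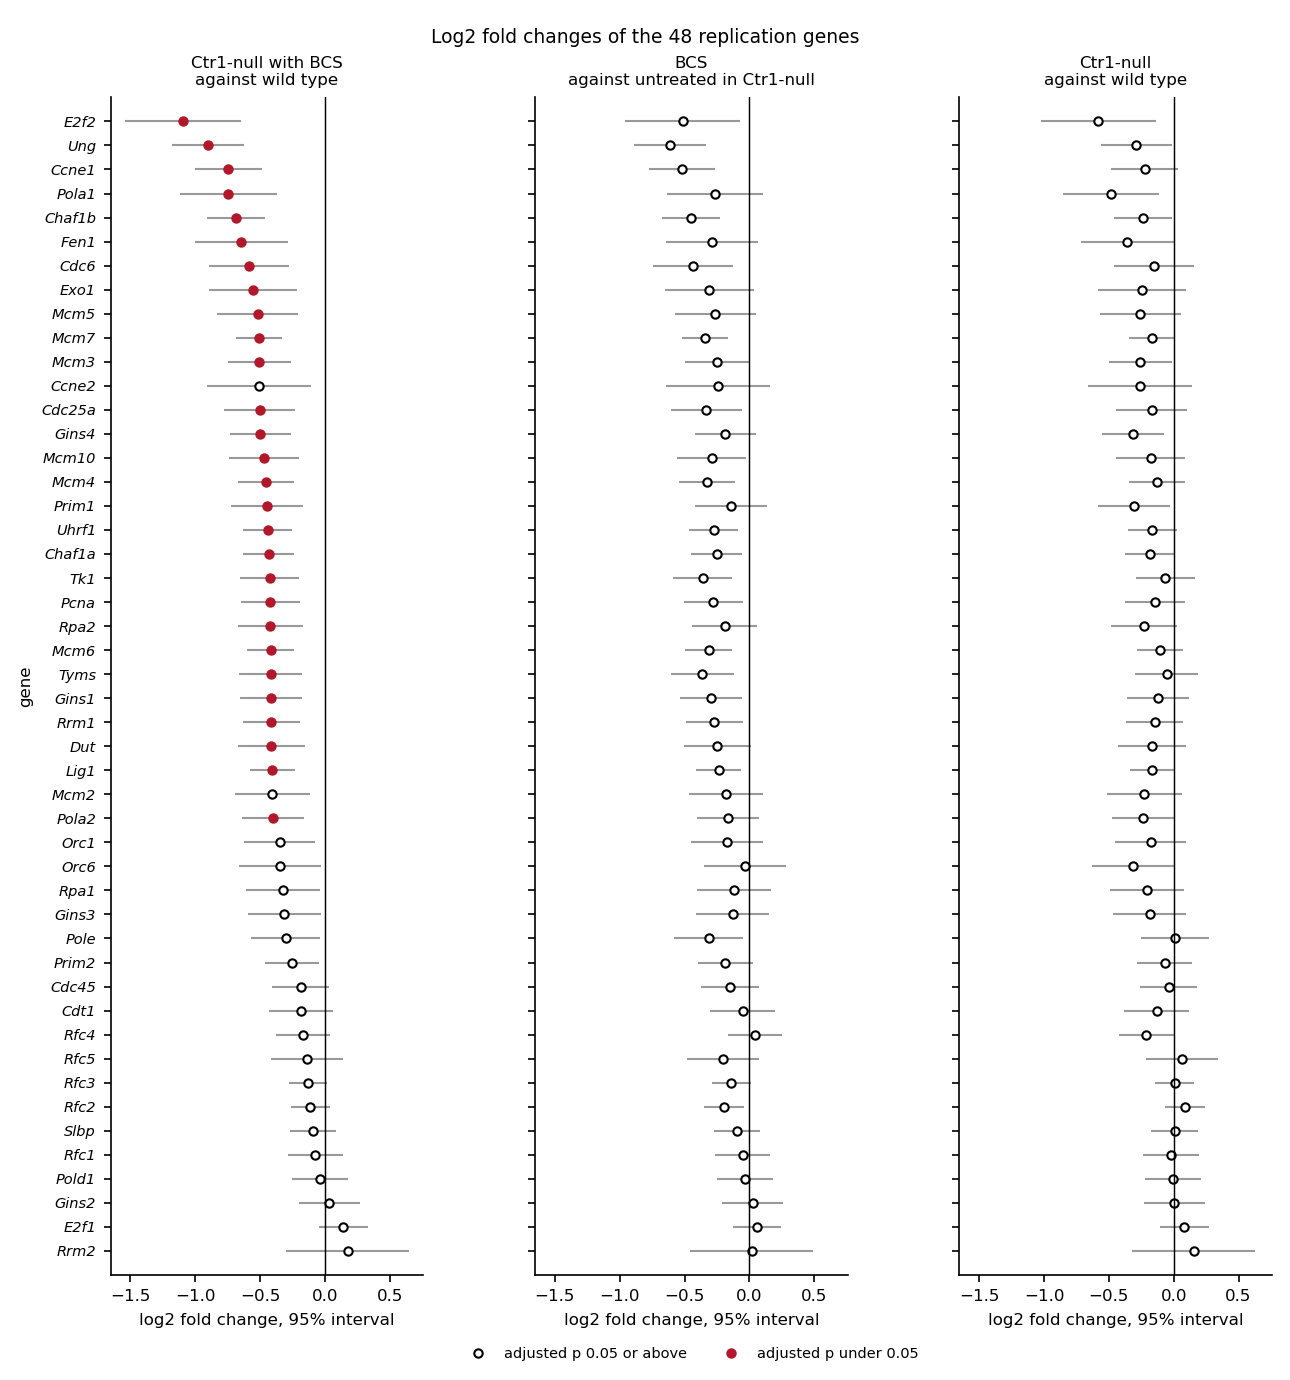
Points are log2 fold changes from the fit of all 9 libraries and lines their 95% intervals, for Ctr1-null with BCS against wild type, BCS against no BCS in Ctr1-null, and Ctr1-null against wild type; filled points have an edgeR adjusted p under 0.05 over all genes. The 28 filled points are all on the left of 0 in the first panel, and the other panels have none, though most of their points also lie left of 0.

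By direction alone, with BCS against wild type 45 of the 48 members were below 0 and 3 above it, where 49.3% of all genes were below and 50.7% above. With BCS against no BCS in Ctr1-null cells 44 were below and 4 above, where all genes had 49.7% and 50.3%. In untreated Ctr1-null cells against wild type 40 were below and 8 above, where all genes had 49.3% and 50.7%. The members share libraries, so these counts are not independent votes. At an unadjusted p under 0.05, edgeR had 36 members lower and 0 higher with BCS against wild type, against 15.9% and 17.0% of all genes. In 34 members every treated library was below every wild type library, an order found in 17.1% of all genes, and E2f1 alone had the reverse order, found in 20.0% of all genes.

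The comparison that isolates BCS, treated against untreated Ctr1-null cells, had 21 members lower and 0 higher at an unadjusted p under 0.05, against 6.37% and 8.34% of all genes, and 0 called after adjustment. In 24 members every treated library was below every untreated one, where 10.9% of all genes had this order, and in 0 members was the order reversed, which 13.4% of all genes showed. The lowest log2 fold changes were those of Ung, Ccne1 at -0.52 ± 0.11 (edgeR adjusted p = 0.109) and E2f2 at -0.52 ± 0.20 (adjusted p = 0.281), and the highest those of E2f1 at 0.06 ± 0.08, Rfc4 at 0.04 ± 0.09 and Gins2 at 0.03 ± 0.10. By role, the smallest unadjusted p belonged to Cdc6 (0.0105, edgeR), Mcm7 (0.00164), Gins1 (0.0212), Rfc2 (0.0165), Pole (0.0238), Ung (6.4e-04), Tk1 (0.00544), Ccne1 (0.0012) and Chaf1b (0.00112). DESeq2 called 5 members lower here, which were Mcm6, Mcm7, Ung, Ccne1 and Chaf1b, and edgeR without wild type replicate 1 called Chaf1b. Over all genes edgeR called 10 and DESeq2 621. With each library left out, members at an unadjusted p under 0.05 (edgeR) ran from 13 to 27. They were 13 without BCS-treated replicate 3 and 14 without untreated Ctr1-null replicate 1, with a median of -0.16 in each. They were 27 without wild type replicate 1 or BCS-treated replicate 2. Over all genes the 4 fits had 1660, 1948, 3755 and 2464 in that order, beside 2708 with all libraries.

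Loss of Ctr1 without BCS gave 9 members lower and 0 higher at an unadjusted p under 0.05, against 8.52% and 9.08% of all genes, and 0 called by edgeR or by DESeq2 after adjustment. In 4 members, E2f2, Prim1, Lig1 and Ung, every Ctr1-null library was below every wild type library, which is near the 8.62% of all genes with that order, and 0 members had the reverse order, which 9.49% of all genes had. The lowest log2 fold changes were -0.58 ± 0.20 for E2f2 (edgeR adjusted p = 0.193), -0.48 ± 0.16 for Pola1 (adjusted p = 0.196) and -0.36 ± 0.16 for Fen1 (adjusted p = 0.282), and the highest 0.15 ± 0.21 for Rrm2, 0.09 ± 0.07 for Rfc2 and 0.08 ± 0.08 for E2f1. The smallest unadjusted p by role, from edgeR, was 0.0528 for Orc6, 0.0408 for Mcm3, 0.0144 for Gins4, 0.0496 for Rfc4, 0.0158 for Pola1, 0.0401 for Ung, 0.172 for Rrm1, 0.0152 for E2f2 and 0.0373 for Chaf1b. The result depended on single libraries. Without wild type replicate 1 edgeR called 7 members lower, which were Orc6, Gins4, Pola1, Rpa2, Fen1, E2f2 and Chaf1b, and the median was -0.22. That fit called 3254 genes over all, 1737 of them higher, where the 9 libraries gave 2 (Slc31a1 and Pparg). Its members at an unadjusted p under 0.05 (edgeR) numbered 23, beside 6325 of all genes. They numbered 0 without wild type replicate 3 or untreated Ctr1-null replicate 3, beside 1761 and 2190 of all genes.

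Within groups the 48 genes moved together. Replicate 3 with BCS was the lowest BCS-treated library in 46 of 48 genes and the lowest of all 9 libraries in 42. Untreated Ctr1-null replicate 1 was the highest of its group in 42 genes and wild type replicate 1 the lowest of its group in 42. The mean over the 48 genes of log2(CPM + 0.5), set against the wild type mean, was -0.34, -0.25 and -0.54 with BCS, -0.02, -0.23 and -0.21 in untreated Ctr1-null and -0.14, 0.07 and 0.07 in wild type. The treated libraries were lowest, but the spread inside each group reached the size of the gap between untreated Ctr1-null and wild type cells.

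**Figure D4:**
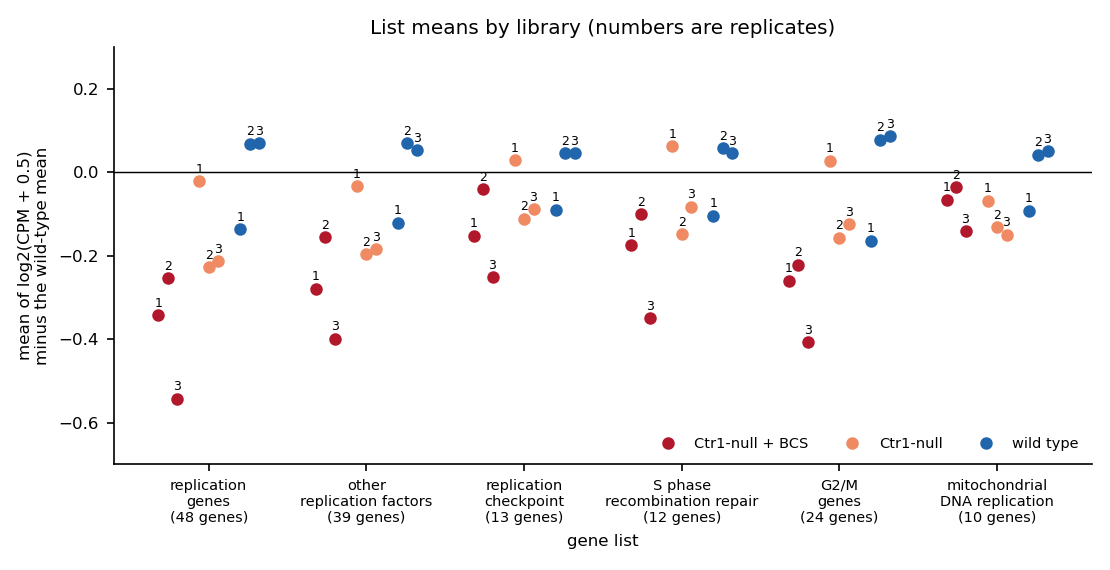
Points are the mean over each list of log2(CPM + 0.5) minus the wild type mean, 1 point a library, numbered by replicate. In the replication genes the 3 BCS-treated libraries (-0.34, -0.25 and -0.54) lie below the other 6. In each list shown, replicate 3 is the lowest of the BCS-treated libraries and replicate 1 the lowest of wild type.

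With each library left out in turn, the number of members called lower with BCS against wild type ran from 4 to 35. It was 4 without wild type replicate 3, 5 without wild type replicate 2, 6 without BCS-treated replicate 3 and 8 without BCS-treated replicate 1. It was 35 without wild type replicate 1, with a median of -0.49. Calls over all genes moved in the same direction, to 568, 645, 640, 796 and 5840 in that order, from 2916 with all libraries. The change in the number of members called was therefore not particular to these genes. The median stayed between -0.49 and -0.35 in these 9 fits. Mcm7, Ung, Ccne1 and Chaf1b were called in all 9, and also under the 9 other alternatives. E2f2 was called in 8 of 9 and lost only without wild type replicate 3 (edgeR adjusted p = 0.0524). None of the 28 changed sign under any alternative tried.

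**Figure D5:**
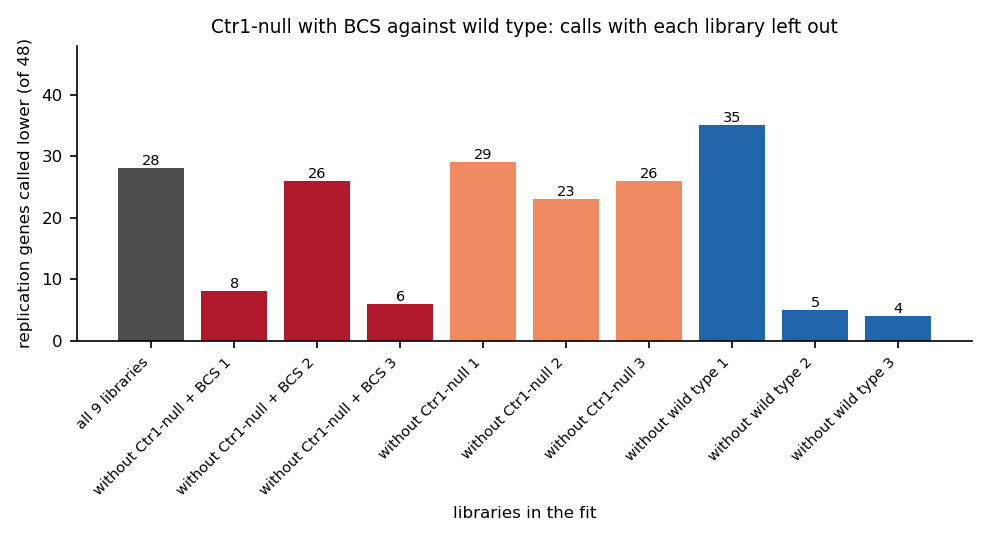
Bars, from 0, count the replication genes (of 48) called lower in Ctr1-null cells with BCS against wild type at an edgeR adjusted p under 0.05, in the fit of all 9 libraries and with each library left out. The count is 28 with all libraries, 4 to 8 without wild type replicate 2 or 3 or BCS-treated replicate 1 or 3, and 35 without wild type replicate 1. Over all genes these fits called 2916, 568 to 796 and 5840 in that order.

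Levels were compared between genes per length, as CPM per kilobase of the mean coding transcript. In wild type cells the highest were Pcna at 211 ± 20.4, Rrm2 at 153 ± 21.9 and Mcm7 at 126 ± 6.76 CPM per kilobase, and the lowest Ung at 6.80 ± 0.34, Exo1 at 4.98 ± 0.321 and E2f2 at 1.26 ± 0.254 CPM per kilobase (SD, n = 3 each). With BCS the highest were Rrm2 at 173 ± 32.8, Pcna at 157 ± 14.8 and Mcm7 at 89.0 ± 5.24 CPM per kilobase. The mean of Rrm2 stood above that of Pcna there, but their spreads overlapped. Rrm1, the partner of Rrm2, had 59.5 ± 4.56 CPM per kilobase with BCS and 79.3 ± 7.53 CPM per kilobase in wild type.

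Genes around the 48 were read from lists of their pathways. Over all genes tested, 7.28% were called lower and 8.56% higher with BCS against wild type, the shares to set beside each list below. Of 39 other replication factors, 12 fell and 1 rose with BCS against wild type. The lowest p belonged to Dna2, a nuclease and helicase of Okazaki fragment processing, with 18.8 ± 3.03 CPM with BCS and 32.5 ± 1.20 CPM in wild type (log2 fold change -0.78 ± 0.12, edgeR adjusted p = 0.00651). Donson, a factor of helicase activation, had -0.61 ± 0.09 (edgeR adjusted p = 0.00663), Chtf18, a subunit of an alternative clamp loader, -0.55 ± 0.10 (adjusted p = 0.0094) and Wdhd1, which couples polymerase alpha to the helicase, -0.50 ± 0.10 (adjusted p = 0.0123). Pold4, the small subunit of polymerase delta, rose, with 27.6 ± 1.91 CPM with BCS and 16.6 ± 0.639 CPM in wild type (0.73 ± 0.12, edgeR adjusted p = 0.00808). The list's median was -0.30. In the other comparisons none of the 39 was called, the smallest p being that of Pold4 for BCS (0.61 ± 0.12, edgeR adjusted p = 0.0924) and Dna2 for loss of Ctr1 (-0.36 ± 0.12, adjusted p = 0.172).

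G1/S control genes held 7 that fell and 1 that rose of 19 with BCS against wild type. Those with the smallest p were Skp2, which marks inhibitors of cyclin-dependent kinases for destruction (-0.63 ± 0.09, edgeR adjusted p = 0.00651), the E2F family members E2f7 (-0.68 ± 0.12, adjusted p = 0.00997), E2f6 (-0.30 ± 0.06, adjusted p = 0.0164) and E2f8 (-0.52 ± 0.12, adjusted p = 0.0233), all of which are known as repressors. The gene that rose was Cdkn1a, whose product inhibits Cdk2 and binds PCNA. Cdkn1a had 396, 395 and 441 CPM with BCS, 214, 231 and 242 CPM in Ctr1-null without BCS and 265, 252 and 242 CPM in wild type. Every treated library was above every untreated one, by 0.70 ± 0.08 against wild type (edgeR adjusted p = 0.00462) and 0.84 ± 0.08 against untreated Ctr1-null (adjusted p = 0.0117), each on the log2 scale. The call against untreated Ctr1-null was lost without any of the Ctr1-null libraries other than BCS-treated replicate 2, with adjusted p of 0.0563 to 0.109. Loss of Ctr1 alone called none of the 19, the smallest p being that of Skp2 (-0.31 ± 0.09, edgeR adjusted p = 0.157).

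Of 24 G2/M genes, 8 fell with BCS against wild type and none rose. Mki67, which is made in cycling cells, had 334, 329 and 325 CPM in BCS-treated Ctr1-null libraries, 479, 456 and 472 CPM in untreated Ctr1-null libraries and 486, 449 and 461 CPM in wild type libraries. The treated libraries lay close together and below all untreated ones. The log2 fold change was -0.50 ± 0.07 against wild type (edgeR adjusted p = 0.0056) and -0.51 ± 0.07 against untreated Ctr1-null (adjusted p = 0.046), the second of which was lost under 5 other alternatives and without any library but wild type replicate 1. Plk1, a mitotic kinase (-0.51 ± 0.07, edgeR adjusted p = 0.0056), Bub1b of the spindle checkpoint (-0.36 ± 0.07, adjusted p = 0.0142) and Cdc20, an activator of the anaphase-promoting complex (-0.48 ± 0.11, adjusted p = 0.0205), also fell. The median of the list was -0.29, and -0.42 for the 48 replication genes. The list means by library were -0.26, -0.22 and -0.41 with BCS, 0.03, -0.16 and -0.13 in untreated Ctr1-null and -0.16, 0.08 and 0.09 in wild type. For loss of Ctr1 alone Cdc20 had the smallest p in the list (-0.29 ± 0.11, edgeR adjusted p = 0.227).

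Calls in 3 further lists were as follows, where 7.28% of all genes were called lower and 8.56% higher with BCS against wild type. Of 13 checkpoint genes only Rad9a, a subunit of the checkpoint clamp, fell with BCS against wild type (-0.34 ± 0.10, edgeR adjusted p = 0.0413). This 1 call among 13 is near the share of all genes called lower. Of 12 genes of recombination repair in S phase, Fanca of the Fanconi core complex (-0.47 ± 0.09, edgeR adjusted p = 0.0115) and the helicase gene Blm (-0.39 ± 0.09, adjusted p = 0.0215) fell. Of 10 genes that replicate mitochondrial DNA, Polrmt, the mitochondrial RNA polymerase (-0.41 ± 0.07, edgeR adjusted p = 0.00755), and Polg, the mitochondrial DNA polymerase (-0.30 ± 0.09, adjusted p = 0.0434), fell and Dguok, a mitochondrial deoxyguanosine kinase (0.55 ± 0.12, adjusted p = 0.0174), rose. The median of the mitochondrial list was -0.01. Polrmt had nearly the same value in untreated Ctr1-null against wild type, -0.38 ± 0.07, without passing the test (edgeR adjusted p = 0.0769), and Brca2 and Rad9a had the smallest p of their lists, at 0.30 ± 0.08 (adjusted p = 0.129) and -0.32 ± 0.10 (adjusted p = 0.157). For BCS against no BCS these 3 lists had no call, and the smallest p belonged to Clspn, a checkpoint mediator, at -0.24 ± 0.12 (edgeR adjusted p = 0.399), Fanca at -0.30 ± 0.09 (adjusted p = 0.191) and Dguok at 0.38 ± 0.12 (adjusted p = 0.202).

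Some members share sequence or exons with other genes, and their values carry that uncertainty. Fen1 shares 78.8% of its exon bases with Gm10143 and Chaf1a 52.5% with Ubxn6, each on the opposite strand, and Ccne2 shares 17.4% with Ints8. Gm10143 held 1614 counts in all 9 libraries, against 44216 for Fen1, while Ubxn6 held 28286 against 48200 for Chaf1a. Mcm7 shares 7.3% of its exon bases with Ap4m1 and has a processed pseudogene, Gm5487, with 97.7% identity over 2157 bases. Pseudogenes like Pcna and Uhrf1 held 31 and 4 counts in all libraries. Tyms, with 33228 counts, shares stretches of at least 95% identity with the most genes of any member, among them transcripts of Reep3 (97.7% over 355 bases, 77465 counts), Map3k2 (95.5% over 357 bases, 32106 counts) and Wdr59 (96.4% over 358 bases, 17284 counts). Gins2, with 31178 counts, shares 2758 bases with Gse1, which held 18579, and Rfc5, with 27953 counts, shares 499 bases with Wsb2, which held 76719. Rfc4, with 15825 counts, shares 12.7% of its exon bases with Eif4a2, on the opposite strand, which held 169115. Cdc6, Lig1, Rfc2, Rrm2 and Slbp also have such matches, to genes with at most 5803 counts. Ung, Ccne1 and Chaf1b were not among the genes with an exon overlap on the opposite strand or a copy of at least 95% identity over 200 bases.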

How the data were processed

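RNA from 9 libraries of mouse embryonic fibroblasts was analysed from 2 tables. The authors' main table holds estimated counts per gene as deposited, already rounded to whole numbers and without normalisation. The other table, also deposited by the authors, gives a scaled signal, equal to the count over a factor specific to gene and library, and served only for an alternative with the authors' factors, which was chosen after seeing the data. FastQC, STAR, Salmon, DESeq2 and the build GRCm38 are named in the submitters' processing notes. Versions, the role of each tool and the use of strand in counting are not given in the sources used here.

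Of 52661 gene rows, 50410 matched the GENCODE annotation of GRCm38 by identifier with version, 2156 without it and 95 not at all. Genes passing filterByExpr (minimum count 10, minimum total 15) were scaled by TMM and tested with edgeR 4.0.16 in R 4.3.3, by a quasi-likelihood fit of all 9 libraries in 3 groups without covariates (6 residual degrees of freedom of the design, common biological coefficient of variation 0.169). The p-values are 2-sided and adjusted by Benjamini and Hochberg over 18408 genes, and called below 0.05. CPM uses TMM-scaled totals, errors after ± are SD for CPM and standard errors for log2 fold changes, and 95% intervals come from the fit. Library totals were 38962036 to 57206337 counts, so that a count of 0 allows up to 3 counts, or 0.0524 to 0.077 CPM, a limit of counting error only, as PCR copies were not told apart. Alternatives changed the scaling, the filter, the tool (DESeq2 1.42.0), the libraries in the fit, the replicate block, or left out each library. On simulated counts for Ctr1-null against wild type (18044 genes) 77 of 103 simulated 2-fold changes and 93 of 97 simulated 4-fold changes were called. So were 10 of 17844 genes left as they were. Recovery of changes smaller than 2-fold was not tested. The median log2 fold change of the 48 members in this comparison, -0.17, is such a change.

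The members, the lists and the rule for named genes were chosen with earlier results of these data known. Values in every library are given for each called member, the 3 members with the highest and the 3 with the lowest log2 fold change in each comparison, and the member of each role with the smallest p. From each pathway list up to 4 called genes per direction, or the gene with the smallest p, are named. One cell type marker is not reported here. Exon overlaps come from the annotation and near-identical copies from BLAST 2.17.0 (at least 95% identity over 200 bases).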

Additional observations from a re-analysis of the deposited data

How the results depend on the processing

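With BCS against wild type, edgeR called 28 replication genes and 2916 genes in all. Single libraries moved these counts most: leaving out each in turn gave 4 to 35 replication genes and 568 to 5840 genes. For Ctr1-null against wild type (0 replication genes, 2 genes in all) the ranges were 0 to 7 and 1 to 3254, with both upper values without wild type replicate 1, and for BCS against no BCS (0 and 10) they were 0 to 1 and 0 to 183. The median log2 fold change of the replication genes kept its sign in all 9, at -0.49 to -0.35, -0.22 to -0.12 and -0.32 to -0.16 in the 3 comparisons in that order. Under the other settings, DESeq2 called 991 genes for Ctr1-null against wild type and 621 for BCS against no BCS, 5 of them replication genes, and fits without the filter on low counts called 265 and 114. Ctr1-null against wild type gave 4 genes with DESeq2 size factors, upper-quartile factors, library size only, a filter at 1 CPM or the authors' factors, and 1 with only the groups compared. With the replicate number as a block, 14 replication genes and 1543 genes were called with BCS against wild type, 2 genes for BCS against no BCS, where Cdkn1a lost its call (edgeR adjusted p = 0.093), and 1 for Ctr1-null against wild type. The labels do not say whether the replicate numbers pair the libraries. Correlations of deviations ran from -0.483 to 0.429 for same-numbered libraries and from -0.452 to 0.557 for the others. With 3 libraries a group, they do not decide whether the libraries are paired. Library size only and only the groups compared each called 22 replication genes with BCS against wild type. Under library size only, 1 of these, E2f1, was called higher. The causes were not tested. Across settings, 4 members changed sign with BCS against wild type, none of them called. The least abundant member, E2f2, had at least 114 counts in each library, and 3 libraries a group limit the precision.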
